A study of Homo sapiens with 79 samples.

Results

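The mRNAs described here encode histone acetyltransferases and the coactivators that work with them, and they come from 9 genes: CREBBP, EP300, KAT2A, KAT2B, TRRAP, NCOA1, NCOA2, NCOA3 and TADA3. They were taken by gene symbol from a table of 48453 genes, together with all 62 of their isoforms from a table of 185661 isoforms. All 9 genes and all 62 isoforms passed the filter on low values, which asked for at least 1 FPKM (fragments per kilobase of transcript, scaled to the mapped fragments of the library) in at least 2 libraries. For 2 of the 9 the encoded protein was itself an antibody target, since CREBBP encodes CBP and KAT2B encodes PCAF.

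RNA was measured in K562, an established human leukemia cell line, by fRIP-Seq, in which a mild formaldehyde fixation of cultured cells is followed by sonication, immunoprecipitation of 1 protein and sequencing of the RNA that comes with it. No other treatment was given to the cells. There were 70 fRIP libraries of 24 targets, with 3 libraries for each of 22 targets and 2 each for EZH2 and STAG2, and 9 libraries of input RNA from the lysate, labelled as 3 sets of 3. Besides CBP and PCAF the targets were SUZ12, EZH2, CBX3, phospho-CBX3 (a modified form of CBX3), HDAC1, LSD1, DNMT1, PHF8, CHD1, CHD4, CHD7, RBBP5, WDR5, CTCF, STAG2, NUP98 and the RNA-binding proteins ADAR, HNRNPH1, HNRNPU, HUR, IMP1 and PABP. Replicates came from separate lysates made on different dates, per the study's methods. Each target was recovered with a single antibody, from 1 cell line, and libraries made with a non-specific antibody were not analysed here, so an mRNA that sticks to an antibody and one that is held by the target cannot be told apart. The study included STAG2, a cohesin subunit, to control for unspecific RNA recovery.

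Histone acetyltransferases transfer acetyl groups to lysines of histone tails and of other proteins, and acetylated histones are a common mark of active promoters and enhancers. CBP and its close relative p300 (EP300) are large coactivators that are brought to genes by many transcription factors, and the p160 proteins NCOA1, NCOA2 and NCOA3 connect nuclear hormone receptors to them. GCN5 (KAT2A) and PCAF (KAT2B) are the catalytic subunits of SAGA and ATAC complexes, where TADA3 is an adaptor that the enzyme needs to act on nucleosomes, and TRRAP is a very large scaffold that activators contact in both SAGA and the TIP60 complex.

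In the GRCh37 (hg19) assembly, with GENCODE v44 coordinates, the acetyltransferase genes lie at chr16:3775055-3930714 on the minus strand (CREBBP, ENSG00000005339.8 in the table), chr22:41488596-41576081 on the plus strand (EP300, ENSG00000100393.9), chr17:40265129-40273385 on the minus strand (KAT2A, ENSG00000108773.6) and chr3:20081938-20195896 on the plus strand (KAT2B, ENSG00000114166.7).

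CREBBP and EP300, and likewise KAT2A and KAT2B, are paralogs, so reads from one could in principle be counted for the other. Their aligned coding sequences were 70.46% identical for CREBBP and EP300 and 69.72% identical for KAT2A and KAT2B. The longest run of identical coding bases was 29 in the first pair and 20 in the second, and no word of 31 bases occurred in the exons of both paralogs of a pair. A stretch of 90 coding bases around the longest identical run is printed for each pair, with capitals at the bases that differ. The CREBBP and EP300 stretches differ at 11 of 90 bases, lie within exon 31 of 31 and encode part of a TAZ zinc finger, at chr16:3779615-3779704 on the minus strand and chr22:41572948-41573037 on the plus strand.
CREBBP: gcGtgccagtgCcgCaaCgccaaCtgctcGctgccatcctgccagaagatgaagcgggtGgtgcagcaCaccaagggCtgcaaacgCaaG
EP300: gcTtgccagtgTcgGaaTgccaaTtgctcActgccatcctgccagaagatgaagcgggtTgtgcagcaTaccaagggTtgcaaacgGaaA

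The KAT2A and KAT2B stretches differ at 27 of 90 bases and join exons 1 and 2, so that each spans 1 intron, at chr17:40272775-40273000 on the minus strand and chr3:20082256-20113897 on the plus strand.
KAT2A: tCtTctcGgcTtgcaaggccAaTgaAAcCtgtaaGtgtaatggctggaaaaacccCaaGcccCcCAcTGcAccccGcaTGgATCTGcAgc
KAT2B: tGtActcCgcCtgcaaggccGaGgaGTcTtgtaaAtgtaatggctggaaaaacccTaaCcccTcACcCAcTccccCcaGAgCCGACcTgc

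The scaffold and adaptor genes lie at chr7:98475556-98648454 on the plus strand (TRRAP, ENSG00000196367.8) and chr3:9821651-9834695 on the minus strand (TADA3, ENSG00000171148.9). The p160 genes lie at chr2:24714123-24993571 on the plus strand (NCOA1, ENSG00000084676.11), chr8:71022017-71316043 on the minus strand (NCOA2, ENSG00000140396.8) and chr20:46130631-46285621 on the plus strand (NCOA3, ENSG00000124151.14).

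Sharing with neighbours was larger than sharing with paralogs. Of the 31-base words in KAT2A exons, 9.69% also occurred in ENSG00000267261, an overlapping protein-coding annotation on the same strand, and 18.9% of those of TADA3 occurred in other genes, with OGG1 and ARPC4 overlapping it on the opposite strand. Since the strand use of the counting is not given in the sources used here, TADA3 values may hold reads of these neighbours. For the other 7 genes the share ran from 0% for KAT2B and NCOA2 to 7.80% for TRRAP.

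Depth, read approximately from the step that 1 fragment adds to low FPKM values, was 1940000 to 58700000 fragments in the fRIP libraries, 11500000 to 30100000 in the inputs, 13700000 to 18300000 for CBP and 25400000 to 39600000 for PCAF. For EP300, which has 1 isoform, this corresponds to roughly 618 to 1633 fragments in an input library, 845 to 916 with CBP, 2178 to 2961 with PCAF and 147 to 170 with PABP. The inputs expressed the erythroid genes that mark K562, with GATA1 at a median of 85.3 FPKM and HBG2 at 944 FPKM, while CD3E of T cells was at 0.141 FPKM and MS4A1 of B cells was listed at 0. In input set 1, replicate 1 stood apart, with HBG2 at 178 FPKM, the lowest of the 9 inputs, and the highest at 1084 FPKM. Without it, 24 rather than 23 pairs of a member mRNA and a fRIP were called enriched, and 13 were called depleted as before.

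In the inputs, all 9 mRNAs were present, and TADA3 was the most abundant at 56.9 ± 6.75 FPKM (SD, n = 9). TRRAP (22.99 ± 2.81 FPKM), KAT2A (22.5 ± 2.62), NCOA3 (22.2 ± 3.46) and NCOA1 (20.7 ± 2.41) had means closer to each other than their SDs. CREBBP was at 16.7 ± 2.15 FPKM, KAT2B at 14.6 ± 2.70, NCOA2 at 7.60 ± 2.30 and EP300 at 6.31 ± 0.792. Because FPKM is scaled to transcript length and to the library, these levels can be compared between genes, but a rise in a fRIP library is a rise in share, and more of one mRNA cannot be told apart from less of the others. NCOA2 differed between the input sets, at 9.04 to 11.9 FPKM in set 1 and 4.83 to 6.93 FPKM in sets 2 and 3, which did not overlap.

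**Figure D1:**
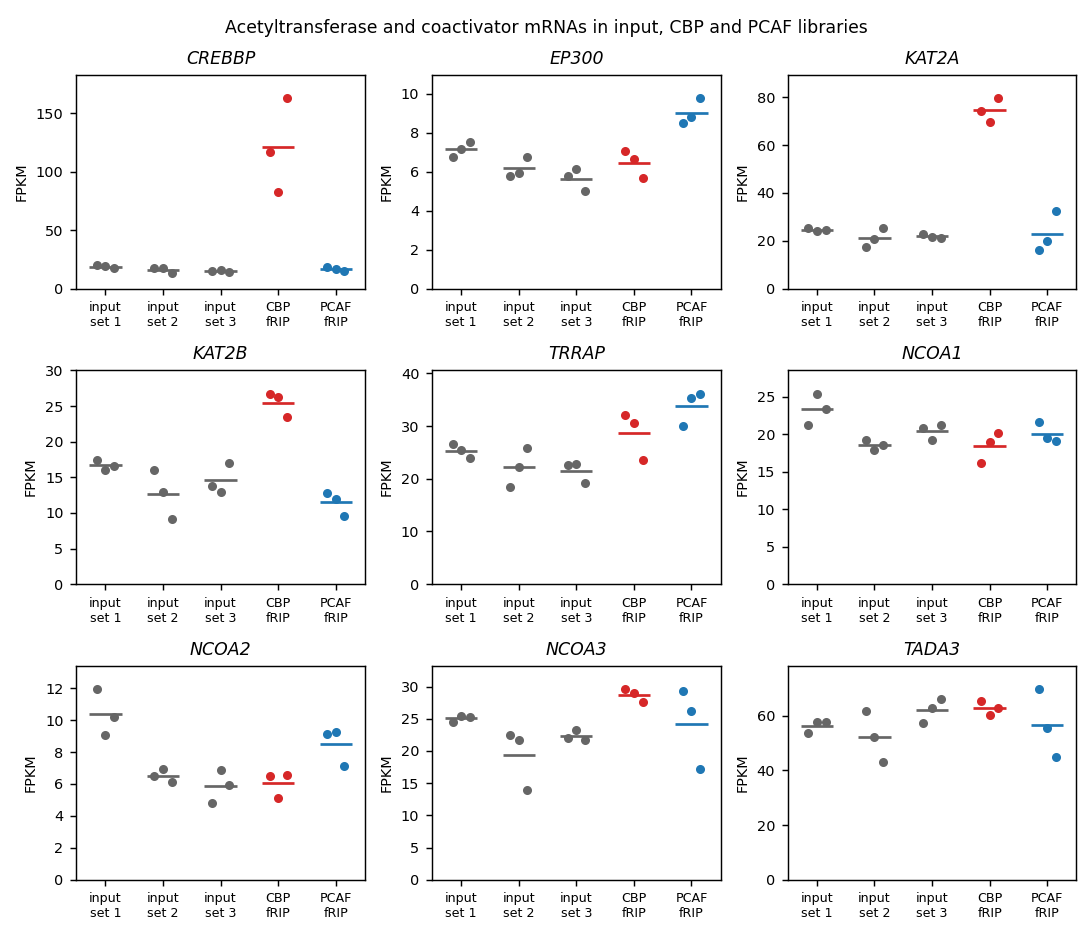
FPKM (vertical axes, linear from 0, a different scale for each gene) of the 9 mRNAs in single libraries (points) of the 3 input sets (grey), CBP fRIP (red) and PCAF fRIP (blue), with the mean of each group as a bar. CREBBP and KAT2A in CBP fRIP lie far above all 9 inputs, and NCOA2 is higher in input set 1 than in the other sets.

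The first comparison asked which of these mRNAs were recovered with CBP, itself a product of one of them. CREBBP mRNA and KAT2A mRNA were enriched with CBP, while EP300, the closest relative of CREBBP, was not. Enrichment here means an adjusted p under 0.05 and a fold change above 2 on the log2(FPKM + 1) scale. In CBP fRIP, 2 of the 9 mRNAs were called enriched and 0 depleted, where 9.08% and 3.78% of all genes tested were. At an unadjusted p under 0.05 the limma fit had 5 higher and 0 lower.

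CREBBP was at 117, 82.6 and 163 FPKM in the 3 CBP libraries, against 13.7 FPKM (lowest), 17.4 FPKM (median) and 20.02 FPKM (highest) in the 9 inputs. The groups did not overlap, and the 3 CBP libraries differed from each other by more than the inputs did. The log2 fold change was 2.74 ± 0.141 (SE), or 6.66-fold, with an adjusted p of 2.28e-24, and the exact two-sided permutation p of 0.00455 is the smallest that 3 libraries against 9 can give. By the size of this change CREBBP was in place 146 of 25442 genes tested.

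KAT2A, which encodes GCN5, was at 74.5, 69.7 and 79.6 FPKM with CBP, against 17.4, 23.02 and 25.4 FPKM as the lowest, median and highest input. No CBP library came near an input, and the log2 fold change was 1.69 ± 0.195, or 3.23-fold (adjusted p = 8.91e-11). KAT2B was at 26.7, 26.2 and 23.5 FPKM against 9.09 to 17.5 FPKM in the inputs. Its libraries also lay above every input, but the log2 fold change of 0.78 ± 0.162 (adjusted p = 6.92e-05) was below the 2-fold limit.

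EP300 was at 7.04, 6.66 and 5.70 FPKM with CBP and at 4.99 to 7.50 FPKM in the inputs. Its groups overlapped, and the log2 fold change was 0.03 with a 95% interval of -0.20 to 0.26, which excludes a 2-fold change in either direction. NCOA3 (0.37 ± 0.141, adjusted p = 0.0316) and TRRAP (0.31 ± 0.136, adjusted p = 0.0705) had log2 fold changes above 0, TADA3 was at 0.15, and NCOA1 and NCOA2 were at -0.17 and -0.25. Among the p160 mRNAs, then, no change reached 2-fold with CBP. In STAG2 fRIP, the control for unspecific recovery, none of the 9 was called enriched or depleted, where 0.979% and 3.36% of all genes were, and at an unadjusted p under 0.05 the limma fit had 0 higher and 2 lower. CREBBP was at 10.1 and 18.1 FPKM and KAT2A at 19.5 and 19.6 FPKM in the 2 STAG2 libraries, below every CBP library. Against the matched input set NCOA2 was depleted with STAG2 (-1.12).

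PCAF fRIP addressed the same question for the other acetyltransferase in the panel. None of the 9 mRNAs was enriched or depleted with PCAF, where 0.515% and 8.54% of all genes were, and at an unadjusted p under 0.05 the limma fit had 2 higher and 0 lower. KAT2B, the mRNA of PCAF itself, was at 12.8, 12.003 and 9.57 FPKM against 9.09, 16.0 and 17.5 FPKM as the lowest, median and highest input. Its libraries lay within the range of the inputs, and the log2 fold change was -0.31 ± 0.162 (adjusted p = 0.135, exact permutation p = 0.1), with a 95% interval of -0.63 to 0.00 that holds no 2-fold change. The mean of KAT2B was 11.5 FPKM with PCAF, 14.6 FPKM over the 9 inputs and 12.6 FPKM in input set 2, the set matched to PCAF.

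EP300 was at 8.51, 8.78 and 9.76 FPKM with PCAF, all above the highest input at 7.50 FPKM. TRRAP was at 30.0, 35.3 and 36.1 FPKM, all above the highest input at 26.5 FPKM. The log2 fold changes were 0.46 ± 0.117 (adjusted p = 0.00134) and 0.54 ± 0.136 (adjusted p = 0.00119), both short of 2-fold. The other 7 mRNAs, KAT2A and KAT2B included, overlapped the inputs.

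The PCAF result depends on the scale. The median gene had a log2 fold change of -0.16 with PCAF, and centring each library on its median gene raised that median by 0.61. On the centred scale EP300 (1.07, adjusted p = 6.16e-09) and TRRAP (1.15, adjusted p = 5.67e-08) were called enriched, where 11.8% of all genes were, and KAT2B turned from -0.31 to 0.30 (adjusted p = 0.0725), so that the sign of the KAT2B difference is set by the scaling. The CBP calls were the same on both scales, with CREBBP at 2.84 and KAT2A at 1.79 after centring.

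Set against each other without the inputs, CBP and PCAF fRIP differed for 3 mRNAs. The matched input set was set 3 for CBP and set 2 for PCAF, so the contrast may hold a difference between these sets, which was not tested. CREBBP was higher with CBP by 2.72 ± 0.173 on the log2 scale (adjusted p = 2.10e-20), KAT2A by 1.72 ± 0.238 (adjusted p = 1.98e-08) and KAT2B by 1.09 ± 0.198 (adjusted p = 7.52e-06). In all 3 the CBP libraries lay above the PCAF libraries without overlap, although an exact permutation test of 3 against 3 libraries cannot go below 0.1. None was lower by 2-fold, and EP300 was at -0.43 ± 0.143 (adjusted p = 0.0153). Of all genes, 13.5% were higher with CBP and 2.22% lower. After centring, KAT2B fell to 0.58 and was no longer called, while CREBBP (2.22) and KAT2A (1.21) were.

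The ratio of 2 paralogs within a library was used to ask whether a fRIP separates members of a pair. It depends less on library scaling than a level does, although the added 1 FPKM draws it toward 0, more so where a member is low, as in PABP fRIP with EP300 at 0.933 FPKM. In the inputs, CREBBP exceeded EP300 by 1.28 ± 0.166 (SD, n = 9) on the log2(FPKM + 1) scale. With CBP this log2 ratio was 3.98 ± 0.588 (SD, n = 3), 2.70 higher than in input (exact two-sided permutation p = 0.00455, adjusted p over 24 fRIPs = 0.0109). Every CBP library lay above every input, and the next largest shifts toward CREBBP were with HNRNPH1 (1.57) and HUR (1.38), which also did not overlap the inputs (adjusted p = 0.0109 for each). The largest shifts toward EP300 were -0.83 with CHD1 and -0.78 with EZH2 (adjusted p = 0.0109 and 0.0242). In all, the ratio passed an adjusted p of 0.05 in 10 fRIPs toward CREBBP and in 9 toward EP300. These 24 tests share their inputs.

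KAT2A exceeded KAT2B by 0.60 ± 0.350 (SD, n = 9) in the inputs on the same scale. With PCAF the log2 ratio was 0.89 and overlapped the inputs (difference 0.28, exact permutation p = 0.368). With CBP it was 0.91 higher than in input and overlapped the highest input (adjusted p = 0.0168). Large shifts went the other way, toward KAT2B, and the largest were with HUR (-2.82), HNRNPU (-2.29), HNRNPH1 (-2.15) and IMP1 (-2.04), 4 RNA-binding proteins whose libraries all lay below every input (adjusted p = 0.0121 for each). The ratio passed the threshold in 12 fRIPs toward KAT2B and in 3 toward KAT2A.

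**Figure D2:**
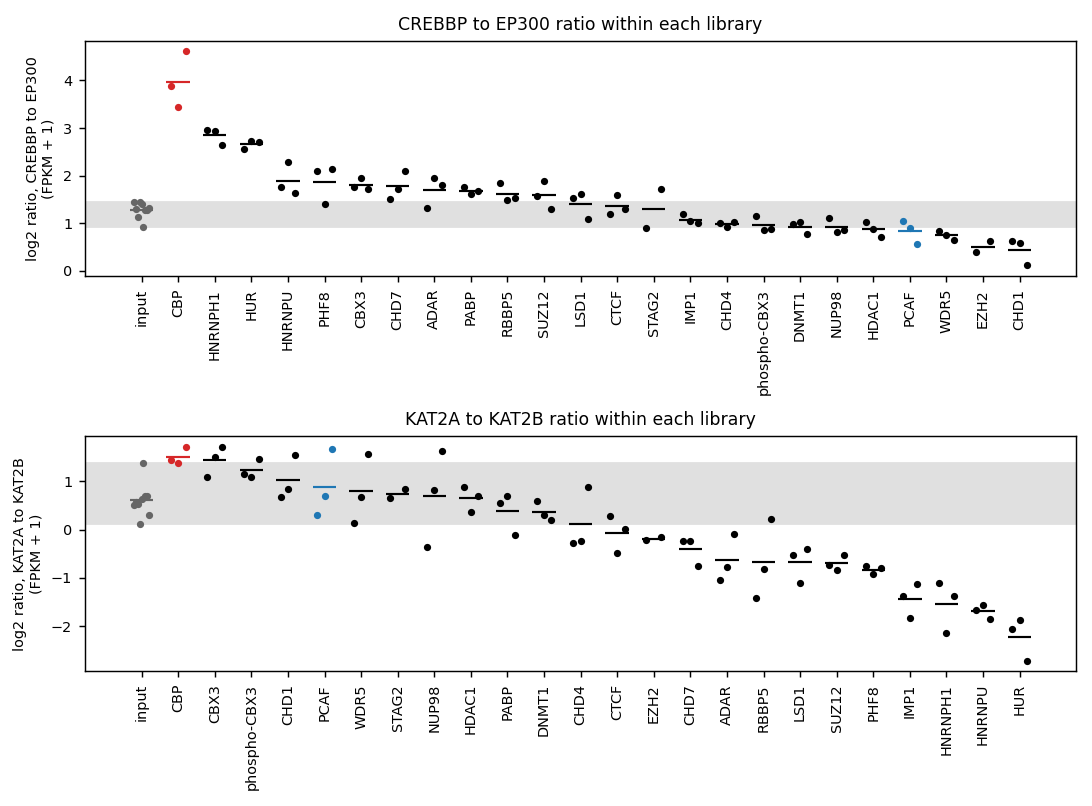
The log2 ratio of FPKM + 1 (vertical axes) of CREBBP to EP300 (upper panel) and of KAT2A to KAT2B (lower panel) in single libraries (points) with group means (bars), for input and for the 24 fRIPs in order of their means. The grey band is the range of the 9 inputs, CBP is red and PCAF is blue. CBP stands highest for CREBBP to EP300, and HUR, HNRNPU, HNRNPH1 and IMP1 stand lowest for KAT2A to KAT2B.

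Across all 24 fRIPs, 23 of the 216 pairs of a member mRNA and a fRIP were enriched and 13 were depleted, against 6.9% and 5.52% of all gene and fRIP pairs. Every one of the 9 mRNAs was called in at least 1 fRIP. The enriched pairs fell in 9 fRIPs and the depleted pairs in 6, while 13 fRIPs, PCAF among them, had none. All comparisons share the 9 inputs, so an input value that is off moves all of them, and calls in different fRIPs are not separate evidence. Counting only the calls that were also made against the 1 matched input set and after centring left 13 enriched and 8 depleted pairs. The share of all gene and fRIP pairs that meets the same conditions is not given here, so these counts cannot be set against all genes.

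**Figure D3:**
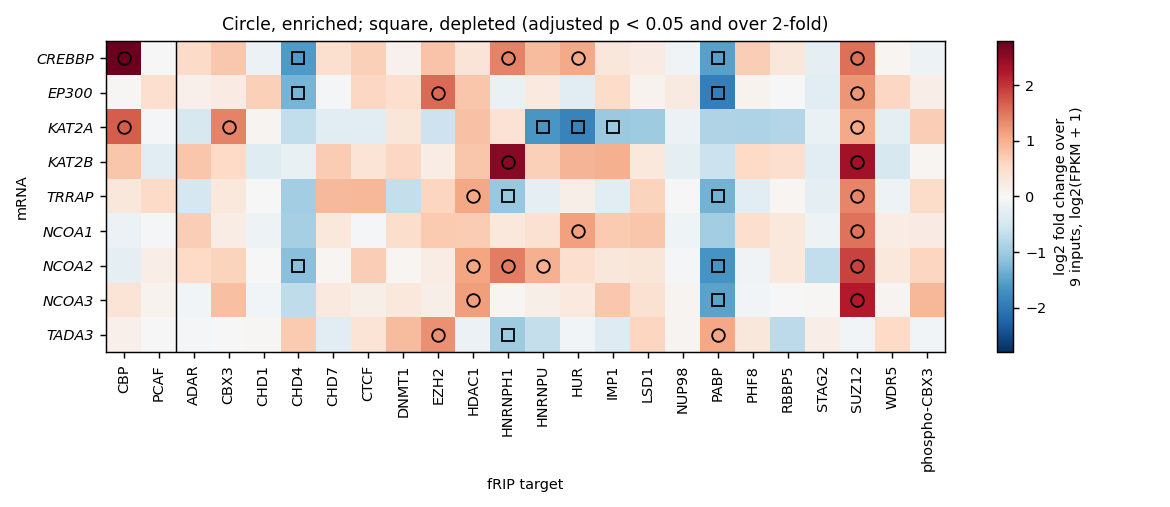
Log2 fold change over the 9 inputs on the log2(FPKM + 1) scale (colour, red above and blue below 0) for the 9 mRNAs (rows) in 24 fRIPs (columns, CBP and PCAF first). Circles mark enriched and squares depleted pairs. SUZ12 fRIP has 8 circles and PABP fRIP 5 squares.

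SUZ12, a core subunit of the Polycomb repressive complex PRC2, had the most enriched members of the 24 targets. With SUZ12, 8 of the 9 were enriched, where 15.3% of all genes were, and 0 were depleted, where 8.6% were. KAT2B had the largest change and was at 84.9, 66.6 and 82.4 FPKM, far above the inputs (log2 fold change 2.35 ± 0.162, adjusted p = 1.74e-19). NCOA3 followed at 88.4, 124 and 110 FPKM (2.23 ± 0.141, adjusted p = 4.95e-21), and NCOA2 at 32.2, 28.4 and 29.5 FPKM (1.89 ± 0.151, adjusted p = 7.49e-17). All 8 had SUZ12 libraries above every input. CREBBP (1.54), NCOA1 (1.53), TRRAP (1.36), EP300 (1.23) and KAT2A (1.05) made up the rest. TADA3 was at 56.0, 50.5 and 55.2 FPKM, inside the input range of 43.2 to 66.2 FPKM. Against the matched input set, KAT2A fell to 0.92 and lost its call, as it did without SUZ12 replicate 3.

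EZH2, the methyltransferase of the same complex, had 2 of the 9 enriched, where 10.5% of all genes were. As with SUZ12, 8 of the 9 had a log2 fold change above 0, and SUZ12 and EZH2 fRIP were not tested against each other. EP300 was at 23.5 and 18.2 FPKM in the 2 EZH2 libraries, against 7.50 FPKM in the highest input (log2 fold change 1.58 ± 0.137, adjusted p = 4.99e-15). This was the highest EP300 level of any group. TADA3 was at 148 and 129 FPKM, above every input (1.27 ± 0.156, adjusted p = 5.40e-10). The most enriched mRNAs with SUZ12, KAT2B and NCOA3, were both under 2-fold with EZH2.

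PABP binds poly(A) tails in the cytoplasm. With PABP 5 of the 9 mRNAs were depleted, where 14.7% of all genes were, and 1 was enriched, where 11.1% were. EP300 was at 0.862, 1.002 and 0.936 FPKM, below every input (log2 fold change -1.91 ± 0.117, adjusted p = 3.99e-21). NCOA2 (-1.66), CREBBP (-1.51), NCOA3 (-1.5002) and TRRAP (-1.31) were the others, each with its 3 PABP libraries below all inputs. TADA3 was the enriched one, at 116, 118 and 129 FPKM (1.08 ± 0.133, adjusted p = 3.23e-10), although against the matched input set it was at 0.95 and not called. After centring, 4 rather than 5 were depleted, with TRRAP at -0.82.

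In fRIP of CHD4, a chromatin remodeling ATPase, 3 of the 9 were depleted, where 9.79% of all genes were depleted. CREBBP was at 5.26, 4.70 and 4.53 FPKM (log2 fold change -1.60 ± 0.141, adjusted p = 4.45e-14), below every input. EP300 (-1.30) and NCOA2 (-1.17) were also below every input, and both stayed short of 2-fold after centring (-0.90 and -0.77). Against the matched input set 5 were depleted, with NCOA1 at -1.10 and TRRAP at -1.12 besides these 3.

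HNRNPH1, a splicing regulator that binds G-rich RNA, had 3 of the 9 enriched, where 24.5% of all genes were, and 2 depleted, where 7.9% were. KAT2B reached 86.4, 89.1 and 93.03 FPKM, the highest KAT2B level of any group (log2 fold change 2.56 ± 0.162, adjusted p = 6.21e-21). NCOA2 (1.44) and CREBBP (1.39) were enriched as well, but both were under 2-fold after centring, by which the median gene dropped by 0.73. The coding NCOA2 isoform ENST00000452400.2, of 8430 bases, was itself depleted (-1.05 ± 0.132, adjusted p = 7.19e-10). The 526-base ENST00000520416.1 rose from 1.14 to 11.9 FPKM (2.58 ± 0.259). TRRAP (-1.07) was depleted and TADA3 (-1.001) lay at the limit, where leaving out any of 8 single libraries took its call away, with values from -1.06 to -0.97. TRRAP was at -0.84 without HNRNPH1 replicate 2. Against the matched input set NCOA2 (0.998) and TADA3 (-0.994) were under 2-fold and lost their calls.

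KAT2A was depleted with 3 of the 6 RNA-binding proteins, and was not called with HNRNPH1 (0.41), ADAR (-0.45) or PABP (-0.83). With HUR, which binds AU-rich sequences, it was at 4.78, 6.37 and 5.17 FPKM (log2 fold change -1.87 ± 0.195, adjusted p = 4.84e-12), with HNRNPU at 7.57, 6.11 and 6.18 FPKM (-1.62 ± 0.195, adjusted p = 4.24e-10), and with IMP1 at 11.1, 8.72 and 11.4 FPKM (-1.05 ± 0.195, adjusted p = 9.75e-06). In each the libraries lay below the lowest input at 17.4 FPKM. These were single depleted members against 6.93% of all genes with HUR, 2.52% with HNRNPU and 10.5% with IMP1. The IMP1 value was -0.59 after centring and -0.93 without IMP1 replicate 2, and was then not called.

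With HUR, 2 of the 9 were enriched, NCOA1 at 49.8, 44.8 and 47.0 FPKM (1.15 ± 0.119, adjusted p = 3.27e-12) and CREBBP at 32.5, 41.8 and 33.6 FPKM (1.06 ± 0.141, adjusted p = 7.04e-09), where 6.42% of all genes were enriched. Both lay above every input, and both fell below 2-fold after centring (0.90 and 0.81), as CREBBP did without HUR replicate 2 (0.95). With HNRNPU, where 13.1% of all genes were enriched, NCOA2 was at 16.96, 14.98 and 15.25 FPKM (1.001 ± 0.151), at the limit, where leaving out any of 7 single libraries ended the call. Against the matched input set it was at 0.56.

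HDAC1, a histone deacetylase, had 3 of the 9 enriched, where 8.42% of all genes were. NCOA3 was at 48.7, 53.1 and 51.1 FPKM (1.18 ± 0.141), NCOA2 at 16.6, 17.7 and 16.4 FPKM (1.10 ± 0.151) and TRRAP at 43.8, 53.2 and 52.8 FPKM (1.09 ± 0.136). All 3 lay above every input with adjusted p from 3.07e-10 to 1.30e-08, and all 3 were under 2-fold against the matched input set (0.996, 0.66 and 0.95) and after centring (0.89, 0.81 and 0.80). CBX3, which binds methylated histone H3, had 1 of the 9 enriched, where 7.45% of all genes were: KAT2A, at 59.4, 60.6 and 61.4 FPKM (1.39 ± 0.195, adjusted p = 2.74e-08), a level next below that with CBP and apart from it.

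Seen by mRNA, CREBBP and NCOA2 were each enriched in 4 fRIPs and depleted in 2, KAT2A was enriched in 3 and depleted in 3, and KAT2B and NCOA1 were enriched in 2 and depleted in none. EP300 and TRRAP were each enriched in 2 and depleted in 2, and NCOA3 and TADA3 were each enriched in 2 and depleted in 1. When the 25 groups, input included, were placed in order of their mean level, most neighbours had overlapping libraries. Of 24 neighbouring pairs the libraries were apart in 0 for TRRAP, 2 each for KAT2B and TADA3, 3 each for EP300, KAT2A and NCOA1, 4 for CREBBP, and 5 each for NCOA2 and NCOA3. CREBBP stood in the order CBP, SUZ12, HNRNPH1 and HUR at the top, of which the first 3 were each apart from the next, and PABP and CHD4 at the bottom. KAT2A stood in the order CBP, CBX3 and SUZ12, with no overlap among these 3. EZH2 and SUZ12 led for EP300 without a gap between their libraries. PABP was lowest for EP300, KAT2B, TRRAP, NCOA1, NCOA2 and NCOA3, but its libraries overlapped the next group for KAT2B, TRRAP and NCOA1.

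The isoform table divides each gene among annotated transcripts, which share most exons, so these values are model estimates and a gain in one isoform can be a loss in another. Of the 62 isoforms, 31 were protein coding, 17 had a retained intron and 3 were annotated for nonsense-mediated decay, and 47 had a mean of at least 1 FPKM over all libraries. Of 1488 pairs of an isoform and a fRIP, 152 were enriched and 83 depleted, where 7.29% and 5.47% of all isoform and fRIP pairs were. With CBP 15 were enriched and 0 depleted, where 13.4% and 2.32% of all isoforms were, and 3 were lower at an unadjusted p under 0.05 in the limma fit.

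Both coding and intron-retaining isoforms of CREBBP were enriched with CBP. ENST00000262367.5, the longest at 10790 bases, rose from 4.96 ± 0.541 FPKM (SD, n = 9) in input to 45.6 ± 16.6 FPKM (SD, n = 3), and ENST00000382070.3, of 7598 bases, from 3.91 ± 0.410 to 40.2 ± 14.9 FPKM. Their log2 fold changes were 2.90 ± 0.125 and 3.02 ± 0.221 (adjusted p = 6.38e-27 and 1.92e-17). In all, 7 of the 12 CREBBP isoforms were enriched, 5 of them coding and 2 with a retained intron. The intron-retaining ENST00000571763.1 rose from 0.678 ± 0.576 to 6.39 ± 1.98 FPKM (2.17 ± 0.446, adjusted p = 8.53e-05), while the intron-retaining ENST00000576720.1 was at 0.853 ± 0.203 FPKM against 1.22 ± 0.353 FPKM in input (-0.25, adjusted p = 0.226).

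For KAT2A, the representative coding isoform ENST00000225916.5 was at 10.9 ± 0.756 FPKM with CBP and 6.80 ± 2.05 FPKM in input (log2 fold change 0.64 ± 0.337, adjusted p = 0.174). The isoform annotated for nonsense-mediated decay, ENST00000465682.1, rose from 11.0 ± 2.53 to 39.7 ± 1.33 FPKM (1.80 ± 0.246, adjusted p = 2.12e-08). The 2 isoforms with retained introns, ENST00000586972.1 (2.49 ± 0.343) and ENST00000592310.1 (2.37 ± 0.311), rose from means of 1.15 and 0.953 FPKM to 10.8 and 9.17 FPKM. KAT2B likewise showed its representative coding isoform, ENST00000263754.4, at 0.26 and its enriched ones, ENST00000426228.1 (1.95) and ENST00000469085.1 (1.49), among transcripts with no coding sequence defined.

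**Figure D4:**
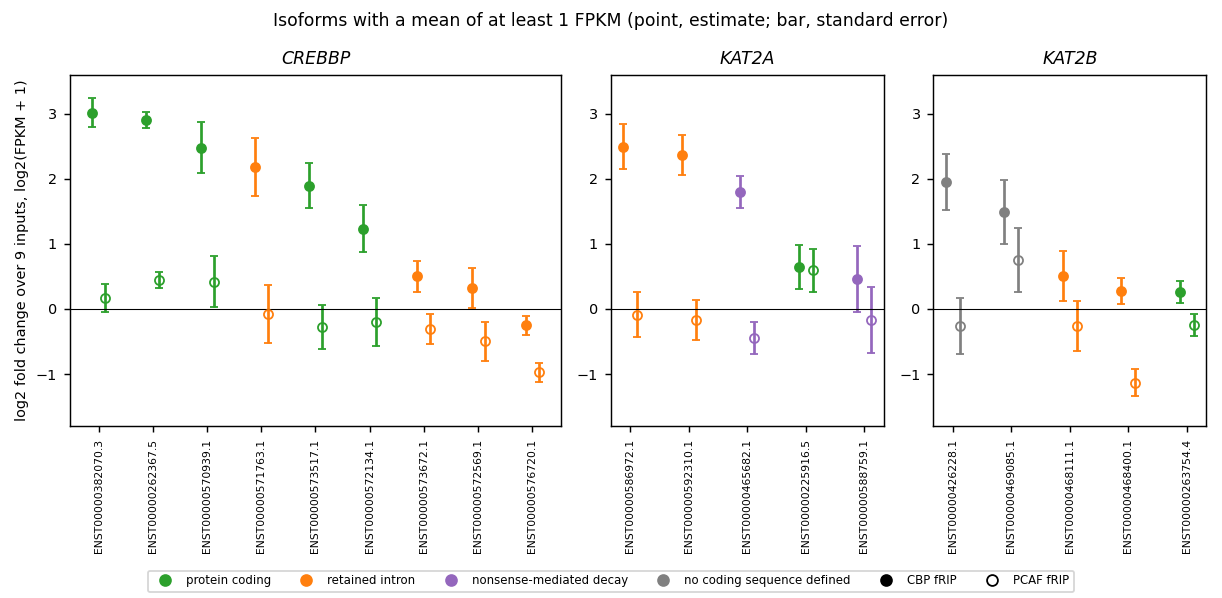
Log2 fold change over input on the log2(FPKM + 1) scale (vertical axis) with its standard error for the isoforms of CREBBP, KAT2A and KAT2B with a mean of at least 1 FPKM, in CBP fRIP (filled) and PCAF fRIP (open), coloured by annotated class. For CREBBP with CBP, coding isoforms at 3.02, 2.90 and 2.48 lie highest, followed by a retained intron isoform at 2.17, and for KAT2A the retained intron isoforms at 2.49 and 2.37 do, above the coding isoform at 0.64.

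With PCAF 2 isoforms were enriched and 3 depleted, where 2.06% and 7.36% of all isoforms were. Both that rose were coding isoforms. TRRAP ENST00000456197.1 was at most 0.00450 FPKM in any input and 8.51 ± 1.93 FPKM with PCAF (log2 fold change 3.23 ± 0.241). NCOA1 ENST00000288599.5 went from 0.587 ± 1.34 to 4.05 ± 2.45 FPKM (1.78 ± 0.477), although its libraries overlapped, since 1 input was at 4.11 FPKM and 1 PCAF library at 1.32 FPKM. Both also rose with EZH2 (3.04 and 2.66), PABP (2.53 and 2.10) and CHD4 (2.03 and 2.37). The 3 that fell were KAT2B ENST00000468400.1 (-1.13), NCOA1 ENST00000483904.1 (-1.47) and NCOA3 ENST00000497292.1 (-1.15), of which the first 2 retain an intron.

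SUZ12 had 29 isoforms enriched and 2 depleted, where 21.3% and 6.47% of all isoforms were, and 11 of the 29 retain an intron. Among 3 enriched NCOA3 isoforms was the coding ENST00000371998.3, which went from 4.64 ± 0.693 to 77.9 ± 11.4 FPKM (3.81 ± 0.231, adjusted p = 5.24e-21), while ENST00000372004.3 fell from 8.01 ± 1.51 to 2.84 ± 0.552 FPKM (-1.22 ± 0.199). KAT2B rose in its short transcripts, with ENST00000469085.1 at 3.88 ± 0.491, more than in the coding ENST00000263754.4 at 0.75 ± 0.164. For NCOA2, the coding ENST00000452400.2 was not called with SUZ12 (0.19 ± 0.132, adjusted p = 0.27). ENST00000518287.2, annotated for nonsense-mediated decay, rose from 0.587 to 6.88 FPKM (2.33 ± 0.196). ENST00000452400.2 was also not called with HDAC1 (0.24) or HNRNPU (0.30), where NCOA2 as a gene was enriched. With PABP 3 were enriched and 16 depleted, where 9.69% and 16.1% of all isoforms were. All 3 that rose and 9 of the 16 that fell were coding. TADA3 divided in PABP fRIP, as ENST00000301964.2 rose (1.62 ± 0.151), the intron-retaining ENST00000492103.1 fell from 3.00 ± 0.826 to 0.117 ± 0.119 FPKM (-1.82 ± 0.218), and ENST00000440161.1 fell (-1.34 ± 0.447) with libraries that ranged from 0.0570 to 11.5 FPKM and overlapped the inputs.

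Because CREBBP and KAT2B are the genes of CBP and PCAF, the same measure was taken for every target. Of the 24 targets, 12 had their own mRNA enriched in their own fRIP, where 6.9% of all gene and fRIP pairs were. None had it depleted, where 5.52% were, or lower at an unadjusted p under 0.05 (limma). After centring 10 were enriched, 9 of them the same as before, and 0 depleted, where 7.04% and 6.58% of all pairs were, and 1 was lower at an unadjusted p under 0.05 (HNRNPU, -0.54, adjusted p = 0.0174). CREBBP with CBP (2.74, or 2.84 after centring) was second on both scales, after STAG2 (6.45) and ahead of CHD1 (2.43). KAT2B with PCAF did not pass the test on either scale, and its place depends on the scale, as it was in place 23 at -0.31 and in place 17 at 0.30 after centring. The mRNA of the target is not a fair sample of genes, and no test was made over this list.

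**Figure D5:**
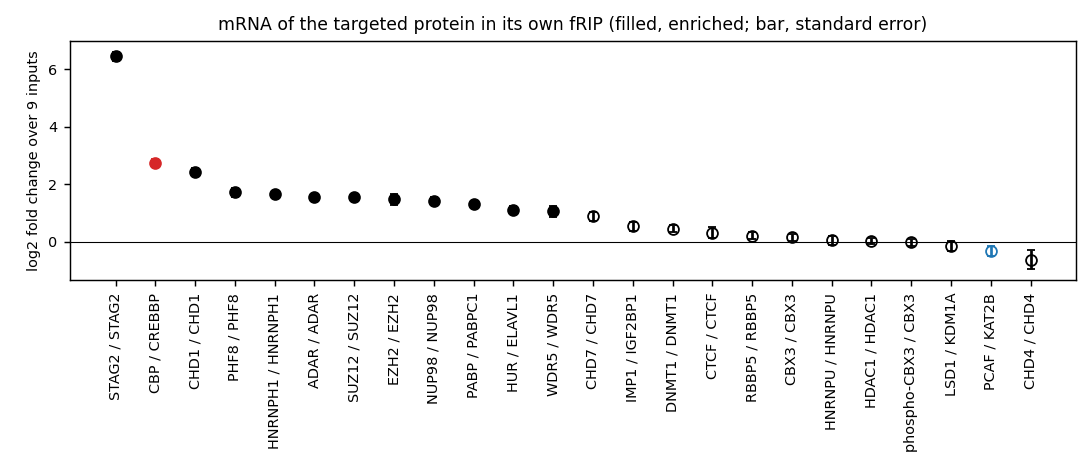
Log2 fold change over the 9 inputs (vertical axis, bars are standard errors) of the mRNA of each targeted protein in its own fRIP, in order of size, with filled points for the 12 called enriched. CBP (red) is second at 2.74, and PCAF (blue) is at -0.31, a value that turned to 0.30 after centring each library.

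The other genes of these complexes were listed by complex, 70 in all: 6 acetyltransferases of the GNAT and MYST families, 21 SAGA and ATAC subunits, 16 TIP60 subunits, 14 MYST partners, and 13 cofactors of CBP and the p160 proteins. With CBP, 11 of the 70 were enriched and none depleted, where 9.08% and 3.78% of all genes were, and 35 were higher and 8 lower at an unadjusted p under 0.05 in the limma fit. The 70 had a median log2 fold change of 0.27 against -0.05 for all genes. By list, 1 of 6, 2 of 21, 3 of 16, 3 of 14 and 2 of 13 rose, in that order. The largest changes were in ING4 (1.71 ± 0.235) and ING5 (1.60 ± 0.215), which read methylated histone H3 in MYST complexes, DMAP1 of TIP60 (1.42 ± 0.136) and CRTC2, a CREB coactivator (1.41 ± 0.160). ING4, for instance, was at 45.9 ± 3.34 FPKM with CBP (SD, n = 3) and 13.9 ± 3.49 FPKM in input (SD, n = 9). The smallest among the 11 called were in CCDC101, the SAGA subunit SGF29 (1.07), RUVBL2, an ATPase of TIP60 (1.09), KAT5, the TIP60 acetyltransferase (1.15), and BRD8 of TIP60 (1.26). The adjusted p of these 8 ran from 1.14e-13 to 5.62e-06. With PCAF none of the 70 was called, where 0.515% of all genes were enriched and 8.54% depleted, and 35 were higher and 4 lower at an unadjusted p under 0.05 in the limma fit. Their median was 0.30 against -0.16 for all genes, and 28 were called enriched after centring, where 11.8% of all genes were.

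In length the members differed. CREBBP, EP300, TRRAP, NCOA1, NCOA2 and NCOA3 have representative transcripts of 7405 to 12640 bases, in the 93.3rd to 99.0th percentile of 13507 mRNA genes, KAT2B and KAT2A are at 4410 and 3115 bases, and TADA3 is at 1974 bases, below the median of 2536. Over all 13507 mRNA genes, Spearman's rho of transcript length with the log2 fold change ran from -0.44 with PABP and -0.37 with CHD4 to 0.37 with HUR, 0.35 with HDAC1, 0.33 with SUZ12 and 0.32 with RBBP5. For SUZ12 the study attributed its length correlation to the number of exons, which was not tested here. Of the 6 long members, 5 were depleted with PABP and 3 with CHD4, and 2 were enriched with HUR, 3 with HDAC1, 6 with SUZ12 and none with RBBP5, where 2.28% of all genes were enriched. These are calls of whole genes. With SUZ12 the representative transcripts of EP300 (1.23) and TRRAP (1.15) were enriched. Those of CREBBP (-0.25) and NCOA2 (0.19) were not called, and that of NCOA3 was depleted (-1.22). For GC content rho ran from -0.55 with RBBP5 and -0.43 with IMP1 to 0.47 with CBP and 0.50 with CTCF. KAT2A and TADA3 are both rich in GC (59.9% and 58.8%), and of these 4 fRIPs KAT2A was depleted with IMP1, enriched with CBP and not called with RBBP5 or CTCF, while TADA3 was called in none of them. These are descriptions across genes, which are not independent replicates, and the part of length or GC in any single call was not tested.

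The genes whose levels over the 25 groups were most like each member were found by Pearson's r of mean log2(FPKM + 1), among 11538 genes with a mean of at least 5 FPKM. They were MLLT6, MLXIP and PLEKHH1 for CREBBP (r from 0.850 to 0.865), SPEN, ZNF148 and NR3C1 for EP300 (0.869 to 0.882), CPNE7, RHOT2 and KRI1 for KAT2A (0.921 to 0.946), and KIAA0430, NEBL and IGF2BP2 for KAT2B (0.853 to 0.875). For TRRAP they were EP400, MYCBP2-AS1 and MYCBP2 (0.915 to 0.923), of which the antisense gene cannot be told apart from MYCBP2 without strand, and for TADA3 they were WIPI2, ADCK2 and MAF1 (0.867 to 0.893). The p160 mRNAs had MPP5, RC3H2 and JHDM1D for NCOA1 (0.884 to 0.923), FAM178A, BRWD3 and PPARGC1B for NCOA2 (0.882 to 0.898) and TANC2, PIK3C2A and DGKH for NCOA3 (0.933 to 0.938). Among the members themselves the p160 mRNAs were the most alike pairs, at r of 0.786 for NCOA2 and NCOA3, 0.774 for NCOA1 and NCOA2 and 0.750 for NCOA1 and NCOA3, and NCOA2 and TADA3 were the least alike at -0.565.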

How the data were processed

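The authors aligned reads to hg19 with TopHat and estimated abundances of GENCODE genes and isoforms with Cuffdiff and Cuffnorm. The deposited values are FPKM of each library, in a table of genes and a table of isoforms, for 79 libraries in 27 labelled groups. A deposited table of comparisons holds the authors' FPKM of each group, log2 fold changes, test statistics, p-values and q-values. Of it only the group FPKM were used, to find which of the 3 input sets each fRIP had been compared with (the matched input set). Every column of values was mapped to a labelled sample or group. The labels number the STAG2 libraries 1 and 3 and the tables number them otherwise, so the second had no number.

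FPKM were analysed as log2(FPKM + 1) in one limma fit (limma 3.58.1, R 4.3.3, intensity trend) over all 79 libraries, with a mean per target and 1 for the 9 inputs, for 25442 genes and 104506 isoforms that reached 1 FPKM in 2 or more libraries. Adjusted p-values are Benjamini-Hochberg values, taken separately for each fRIP over every gene or isoform in the fit. Calls needed an adjusted p under 0.05 and over 2-fold change. Since the unit is FPKM, no count model was used. Fold changes of low genes are understated by the pseudocount. Single ratios were tested by exact two-sided permutation. The fit was tested on simulated data.

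Named were all 9 genes, their isoforms with a mean of at least 1 FPKM over all libraries (others only by count), the 4 largest and 4 smallest changes among called genes of the lists for CBP and PCAF, and the 3 most alike genes. The members and lists were chosen with earlier results of these data known. Isoforms near 0 in input have fold changes set by the pseudocount. Depth was estimated from FPKM steps of single isoform genes, of which 88.6% to 96.6% of values lay within 0.15 of a whole multiple. Coordinates, transcript lengths and sequences come from GENCODE v44 on GRCh37. Coding stretches were aligned with Biopython 1.88.

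Replicate numbers were checked for pairing by correlating deviations from group means with same-numbered libraries of the matched input set. All 3 correlations were over 0.1 for CHD1, NUP98, PCAF (0.138 to 0.599) and WDR5, and the numbers were taken to pair these, from the data alone. For CBP they were 0.0349 to 0.0930. The fit has no replicate block, and a blocked fit was run as an alternative, beside other pseudocounts, filters, centring, single input sets, and each library left out. Nuclear lysate and the SETD2 fRIP were not analysed here.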

Additional observations from a re-analysis of the deposited data

Results flagged for a closer look

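NCOA3 in the 9 inputs had 1 library far from the rest: input set 2, replicate 3 was at 13.9 FPKM, while the others lay between 21.6 and 25.4 FPKM. The gap was judged by Dixon's criterion, which flags about 1 in 20 groups by chance, and 9 mRNAs were examined. With any 1 library left out, this one included, NCOA3 stayed between 1.10 and 1.21 with HDAC1, between 2.12 and 2.36 with SUZ12 and between -1.58 and -1.45 with PABP on the log2 scale, and these calls were kept. KAT2B was also lowest in that library, at 9.09 FPKM.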

How the results depend on the processing

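The choice of input set and scale limits these results, and depth, which differed between libraries, was not varied. Of 53 single values, 621 recalculations other than leaving out a library gave 43 that lost a call and 2 that gained one, and 0 called values reversed, while KAT2B with PCAF, which was not called, changed sign after centring. A replicate block over all numbered libraries left 23 enriched and 13 depleted pairs of a member mRNA and a fRIP, and a replicate block within the matched input set gave 18 and 16, beside 17 and 16 without the block. It changed no call with CBP or PCAF. Against input set 1 alone 15 pairs were enriched and 17 depleted (6.41% and 7.27% of all pairs were). After centring 2 members and 28 listed genes were enriched with PCAF, and 7 and 1 listed genes were with input set 1 or 3 alone (3.2% and 0.483% of all genes). Centring moved the median gene by over 0.1 in 17 of 24 fRIPs, from -0.98 (ADAR) to 0.61 (PCAF), and gave 4 depleted members with ADAR (35.2% of all genes), 3 enriched each with IMP1 (12.5%) and LSD1 (4.76%), and 1 enriched (10.4%) and 1 depleted (4.55%) with CHD4. A pseudocount of 0.1 FPKM raised depleted isoform pairs from 83 to 167, since isoforms near 0 then count for more. The share over all isoforms at this pseudocount is not given here, so the rise is not read as a result about the members.

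With 1 input set alone the CREBBP to EP300 ratio with CBP was 2.69, 2.72 and 2.69 higher for sets 1, 2 and 3 (2.69 for the matched set), where 3 against 3 libraries cannot go below an exact permutation p of 0.1. Leaving out 1 library gave 0 to 3 listed genes enriched with PCAF (3 without replicate 1, 1 without replicate 3), and -0.10 to 0.57 for the KAT2A to KAT2B ratio with PCAF, where the sign reversed without PCAF replicate 3 (-0.104, exact permutation p = 0.636). The higher KAT2B with CBP than PCAF was 0.98 without PCAF replicate 3 and then not called. The cause was not tested.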

Other observations

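Among the 70 other genes of these complexes, SUZ12 fRIP had 24 enriched and 3 depleted (15.3% and 8.6% of all genes were), with a median log2 fold change of 0.63 against 0.01 for all genes. SUZ12 and PABP were chosen here after their values were seen, and the 4 largest and 4 smallest changes among called genes are given for each. With SUZ12 the largest were in NCOA7, a nuclear receptor coactivator (2.41 ± 0.325), MSL3, a chromodomain protein of the MSL complex (2.23 ± 0.118), BRD8 of TIP60 (2.16 ± 0.119) and ATXN7 of SAGA, at 37.01 ± 6.54 FPKM (SD, n = 3) against 8.80 ± 1.73 FPKM in input (SD, n = 9). The smallest were in TAF9 (-1.34 ± 0.128), TAF10 (-1.27 ± 0.133) and ENY2 (-1.12 ± 0.180), small subunits of SAGA that fell, and NCOA5, which rose (1.02 ± 0.146).

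In PABP fRIP, 9 of the 70 were enriched and 6 depleted, where 11.1% and 14.7% of all genes were. The largest changes were in TAF10, at 205 ± 24.8 FPKM (SD, n = 3) against 52.7 ± 5.62 FPKM in input (SD, n = 9), ENY2, at 339 ± 12.8 against 92.4 ± 23.5 FPKM, TAF12 (1.58 ± 0.129) and MRGBP (1.52 ± 0.190). The smallest were in KANSL1 (-3.05 ± 0.133), KAT6A (-2.13 ± 0.137), EP400 (-1.59 ± 0.101) and ATXN7 (-1.57 ± 0.153), which fell. The comparisons with SUZ12 and PABP share their inputs.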
